A study of Mus musculus with 70 samples.

Results

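The genes described here are 9 genes of the B cell receptor and the B lineage: Cd79a, Cd79b, Ms4a1, Cd22, Blnk, Pax5, Ebf1, Cr2 and Bank1. They were chosen by name, not by their measured values, from 52636 genes in a table of read counts from RNA-sequencing of sorted leukocytes. Earlier results of these data were known when the genes were chosen. Of the 70 libraries, 68 were used: 17 of B cells, 17 of T cells, 18 of Ly6Chigh monocytes and 16 of Ly6Clow monocytes. The cells came from trunk blood of C57BL/6J mice, 7 to 8 weeks old at the start, whose red cells had been lysed and whose leukocytes were sorted on CD11b, Ly6C, Ly6G, B220 and CD90.2. Stressed mice had been exposed over 10 days to repeated social defeat, a chronic stress (CSDS) in which an aggressive CD-1 mouse subordinates the experimental mouse, and were split by a social interaction test into susceptible (SUS) mice, which avoided the other mouse, and resilient (RES) mice, which did not. Unstressed pair-housed mice served as controls (CON). No group carried a transgene or a drug treatment. The B cell groups held 6 CON, 6 SUS and 5 RES libraries. The T cell groups also held 6 CON, 6 SUS and 5 RES libraries, the Ly6Chigh groups 6 of each, and the Ly6Clow groups 4 CON, 6 SUS and 6 RES libraries. The labels do not name the mouse behind each library, so no pairing across cell types was possible, and all p-values measure the spread between libraries.

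As background, the B cell receptor is a membrane immunoglobulin that signals through the chains CD79a and CD79b. Antigen binding leads to phosphorylation of these chains and recruitment of kinases, which the adaptor BLNK links to downstream enzymes. CR2 (CD21) is a complement receptor that lowers the threshold for signalling, CD22 is an inhibitory receptor for sialic acid ligands, and BANK1 is a scaffold in the same pathway. MS4A1 (CD20) is a membrane protein of mature B cells. EBF1 and PAX5 are the transcription factors that specify and maintain B cell identity and act on the genes of the receptor chains.

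The libraries held 19769835 to 67038231 counts. Libraries 52 and 70 stood against their labels. Library 52, labelled RES B, held 5.76 CPM (read counts scaled to the size of the library) of Cd79a, while the T cell gene Cd3e stood at 412.4 CPM there, and library 70, labelled RES T, had Cd79a at 1417 CPM with Cd3e at 0.143 CPM. The pair was left out. The labels give the source of every library as brain, whereas the study describes blood. The 6 brain markers summed to 57.1 to 81.4 CPM in B cells and 136 to 216 CPM in T cells. They summed to 235.5 to 492.9 CPM in Ly6Chigh and 257 to 371 CPM in Ly6Clow monocytes. Mbp was the highest of them in each and alone averaged 66.9, 177, 357.5 and 302 CPM in that order. The median sums were 67.8, 180, 361.5 and 299.5 CPM, so the other brain markers added little. In the B cell libraries the 8 T cell markers summed to 15.1 to 38.0 CPM, against 2569 to 3470 CPM in T cells. The 8 monocyte markers summed to 27.2 to 113 CPM in B cells, against 18500 to 31990 CPM in Ly6Chigh monocytes. The 6 red cell markers reached 1320 to 12760 CPM in the B cell libraries.

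The members lie on 6 chromosomes of the GRCm38 genome. Cd79a is on chromosome 7 (24897381 to 24902197), as is Cd22 (30865402 to 30880342). Ms4a1 (11249675 to 11266241) and Blnk (40928927 to 40994535) are on chromosome 19, and Cd79b (106311341 to 106314762) and Ebf1 (44617317 to 45008091) on chromosome 11. Pax5 is on chromosome 4 (44524757 to 44710487), Cr2 on chromosome 1 (195136811 to 195176716) and Bank1 on chromosome 3 (136053363 to 136326066). The deposited counts are given per gene. Genes on the opposite strand overlap Ms4a1, Cd22, Pax5, Ebf1 and Bank1. The strand setting of the counting is not given in the sources used here. The overlapping genes on the opposite strand held a median of 0 to 841 counts in B cells, the highest being 5730488B01Rik within Pax5, which itself held 25176.

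Promoter sequences from RefSeq (GRCm38.p6, 250 bases before to 50 after each start) were matched for 7 of the 9 members, with 8 promoters, since Ebf1 has 2. Cd79b and Ms4a1 had no entry. The promoters were searched on both strands for the EBF core CCCNNGGG, the octamer ATGCAAAT and the ETS motif AGGAAGT, sequences bound by families of factors active in B cells. The EBF core was found in the promoters of Cd22 and Bank1, against 13.7% of 32851 promoters of the same length. The octamer was found in Blnk alone, against 1.74% of all promoters, and the ETS motif in Cd79a and Blnk, against 9.35%. The 4 promoters shown are those with a match. Capitals mark the matches, which do not overlap each other, and each sequence runs 5′ to 3′ on the strand of its gene. Positions count from 1 at the 5′ end. The Cd79a promoter is chr7:24897247-24897546 on the plus strand, with the ETS match from position 196. The Cd22 promoter is chr7:30878979-30879278 on the minus strand, with the EBF core from position 203. The Blnk promoter is chr19:40994172-40994471 on the minus strand, with the ETS match from position 49 and the octamer, read on the other strand, from position 121. The Bank1 promoter is chr3:136326017-136326316 on the minus strand, with the EBF core from position 230.
Cd79a: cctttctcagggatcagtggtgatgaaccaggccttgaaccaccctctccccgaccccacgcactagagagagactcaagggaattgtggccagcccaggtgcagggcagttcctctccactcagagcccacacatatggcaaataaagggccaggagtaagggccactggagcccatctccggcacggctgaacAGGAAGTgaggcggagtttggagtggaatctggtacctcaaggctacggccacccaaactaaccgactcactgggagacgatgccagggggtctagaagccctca
Cd22: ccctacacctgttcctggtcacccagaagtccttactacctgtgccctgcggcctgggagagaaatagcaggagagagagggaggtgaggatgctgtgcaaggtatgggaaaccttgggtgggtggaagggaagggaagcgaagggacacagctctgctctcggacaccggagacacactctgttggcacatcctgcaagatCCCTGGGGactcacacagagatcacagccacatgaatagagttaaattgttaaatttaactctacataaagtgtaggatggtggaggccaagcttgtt
Blnk: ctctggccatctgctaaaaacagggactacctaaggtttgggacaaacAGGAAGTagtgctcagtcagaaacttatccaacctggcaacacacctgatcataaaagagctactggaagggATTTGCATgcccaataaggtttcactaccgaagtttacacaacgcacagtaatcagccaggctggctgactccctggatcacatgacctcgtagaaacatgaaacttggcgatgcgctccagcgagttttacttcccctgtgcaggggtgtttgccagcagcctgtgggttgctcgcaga
Bank1: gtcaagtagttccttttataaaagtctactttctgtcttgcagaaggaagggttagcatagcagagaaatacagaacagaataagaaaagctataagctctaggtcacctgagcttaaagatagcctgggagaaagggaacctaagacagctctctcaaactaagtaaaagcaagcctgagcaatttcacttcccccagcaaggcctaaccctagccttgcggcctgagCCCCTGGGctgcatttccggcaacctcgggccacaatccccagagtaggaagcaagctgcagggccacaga
A match describes letters in these windows and was not tested as a binding site.

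In B cells every member was detected in every library, from 158 CPM for the lowest Blnk value to 1956 CPM for the highest Cd79a value. Summed over the 9 genes, the level was 5800 to 7061 CPM (median 6551 CPM) in B cells, 13.2 to 27.1 CPM in T cells, 15.4 to 30.5 CPM in Ly6Chigh monocytes and 53.8 to 98.1 CPM in Ly6Clow monocytes. Among the libraries used, no member's range in B cells overlapped its range in another cell type. This rests on leaving out libraries 52 and 70, which were set apart on Cd79a, itself a member, and on Cd3e. Library 52, labelled RES B, held Cd79a at 5.76 CPM, and library 70, labelled RES T, held it at 1417 CPM. The share of all genes whose ranges separate in this way was not counted. Per kilobase of merged exons, the signalling chains stood at the top in B cells, with Cd79a at 1012 ± 154 CPM per kb (SD, n = 17) and Cd79b at 801 ± 99.9. Cd22 followed at 174 ± 18.6 CPM per kb, then Ms4a1 at 106 ± 29.3, Bank1 at 105 ± 16.7 and Pax5 at 88.3 ± 17.6. Blnk (40.6 ± 4.92), Cr2 (37.0 ± 5.14) and Ebf1 (29.3 ± 3.10) were lowest on the same scale. The ranges of neighbours in this order overlapped except between Cd79b and Cd22 and between Pax5 and Blnk. Cd79a was above Cd79b in 16 of 17 libraries, whereas Ms4a1 was above Bank1 in 5 of 17.

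**Figure D1:**
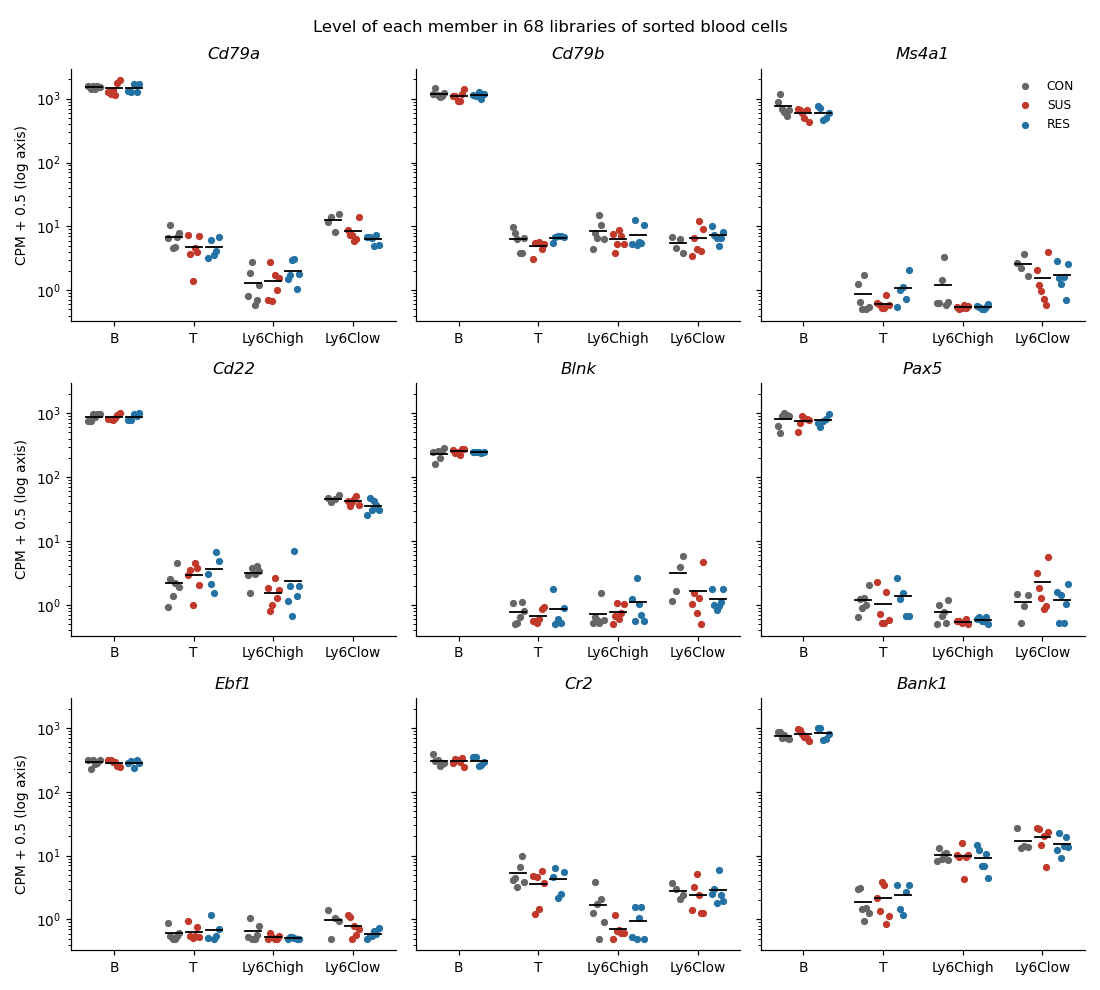
Level of each of the 9 members in every library used, as CPM + 0.5 on a log axis, by cell type and by CON (grey), SUS (red) and RES (blue) mice. Points are libraries and black lines are group means. The B cell libraries lie far above the others for each member, with Cd22 and Bank1 in Ly6Clow monocytes next.

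All 9 members were called higher in B cells than in each other cell type (edgeR quasi-likelihood test, adjusted p under 0.05 and log2 fold change above 1). The members were named as B lineage genes and the cells were sorted on B220 and other markers. These calls therefore describe the sorted cells and are no test of the members. The share of all 24248 genes tested that were called higher in B cells was 10.7% against T cells, 19.8% against Ly6Chigh monocytes and 15.8% against Ly6Clow monocytes. The median log2 fold change of the members was 8.93 against T cells, 9.39 against Ly6Chigh monocytes and 7.52 against Ly6Clow monocytes, beside -0.098, 0.103 and -0.116 over all genes tested. In bulk libraries, fewer expressing cells and less RNA per cell cannot be told apart.

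The transcription factors were among the members with the largest differences. Pax5 was 12.81 ± 0.53 (SE) log2 units higher in B cells than in Ly6Chigh monocytes, 10.17 ± 0.48 than in T cells and 9.74 ± 0.51 than in Ly6Clow monocytes. Ebf1 was 12.51 ± 0.44, 11.00 ± 0.42 and 10.12 ± 0.44 log2 units higher in the same order. Ebf1 had no counts in 3 of 6 SUS, 3 of 6 RES and 2 of 6 CON Ly6Chigh libraries. Ms4a1 was close to these factors, at 12.52 ± 0.53, 11.18 ± 0.51 and 8.83 ± 0.49 log2 units. Pax5, Ebf1 and Ms4a1 averaged 0.134, 0.0682 and 0.266 CPM in Ly6Chigh monocytes and did not pass the filter on low counts within them. The size of their differences from these cells therefore rests on few counts. At the other end were Cd22 against Ly6Clow monocytes, 4.42 ± 0.30 log2 units, and Bank1 against Ly6Clow and Ly6Chigh monocytes, 5.54 ± 0.28 and 6.40 ± 0.26.

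Relative to their mean levels in B cells, the members kept shares in the other cells that ranged widely, although some were close. In Ly6Clow monocytes Cd79a, Cd79b and Blnk stood at 0.549%, 0.527% and 0.5625%. In Ly6Clow monocytes the shares ran from 0.0945% for Ebf1 to 4.56% for Cd22, a 48.2-fold spread with a median of 0.549%. In Ly6Chigh monocytes they ran from 0.0171% for Pax5 to 1.17% for Bank1, and in T cells from 0.0498% for Ebf1 to 1.31% for Cr2. The highest share was 68.7 times the lowest in Ly6Chigh monocytes and 26.2 times in T cells. The lowest shares rest on few counts. Their SD was 0.0228% for Pax5 in Ly6Chigh monocytes, and for Ebf1 0.0983% in Ly6Clow monocytes and 0.0668% in T cells. What gave rise to these shares was not tested.

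**Figure D2:**
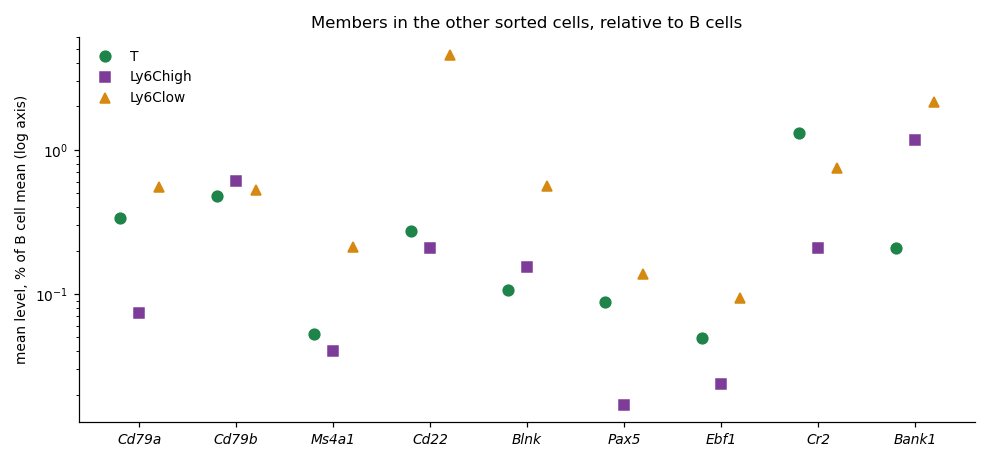
Mean level of each member in T cells (circles), Ly6Chigh monocytes (squares) and Ly6Clow monocytes (triangles) as a percentage of its mean in B cells, on a log axis. Cd22 in Ly6Clow monocytes is highest at 4.56%, Bank1 is above 1% in both monocyte types, and Pax5 in Ly6Chigh monocytes is lowest.

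Cd22, the inhibitory receptor, was the member with the highest level outside B cells. In Ly6Clow monocytes it was 46.4, 39.8, 44.2 and 51.4 CPM in the 4 CON libraries, 35.4 to 50.9 CPM (median 41.0) in SUS and 24.6 to 47.3 CPM (median 32.9) in RES mice. Among the libraries used, these values did not overlap those of T cells, 2.41 CPM on average, or of Ly6Chigh monocytes, 1.84 CPM on average. Cd22 was 4.54 ± 0.28 log2 units higher in Ly6Clow than in Ly6Chigh monocytes (adjusted p = 9.75e-21) and 4.13 ± 0.28 higher than in T cells (adjusted p = 1.75e-19). The Ly6Clow libraries also held natural killer cell markers at a summed 295.9 to 1536 CPM and T cell markers at 22.7 to 100.3 CPM. Their part in these values was not tested.

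Bank1, the scaffold, had the next highest mean in Ly6Clow monocytes and the highest in Ly6Chigh monocytes. It averaged 16.9 CPM in Ly6Clow and 9.24 CPM in Ly6Chigh monocytes, against 1.63 CPM in T cells. In the 4 CON Ly6Clow libraries it was 26.3, 12.8, 13.5 and 12.9 CPM, so 1 library stood above the rest. Among the libraries used, its ranges in Ly6Chigh monocytes and T cells did not overlap. It was 2.53 ± 0.23 log2 units lower in T cells than in Ly6Chigh monocytes (adjusted p = 1.09e-14). Between the monocyte types it was 0.85 ± 0.21 log2 units higher in Ly6Clow (adjusted p = 0.00072), which is under the fold threshold.

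Over the 3 comparisons among the other cells, 7 of 9 members were called higher in Ly6Clow than in Ly6Chigh monocytes, beside 16.6% of all genes called higher. These 7 include Ms4a1, Pax5 and Ebf1, which did not pass the filter within Ly6Chigh monocytes. They averaged 0.266, 0.134 and 0.0682 CPM there, so their calls rest on few counts. Against T cells 4 members were called higher in Ly6Clow monocytes, beside 19.1% of all genes. Between T cells and Ly6Chigh monocytes 5 members were called, 4 of them higher in T cells, beside 42.2% of all genes. Of these 4, Ebf1 (0.142 against 0.0682 CPM) did not pass the filter within either cell type and Pax5 (0.683 against 0.134 CPM) did not within Ly6Chigh monocytes, so both calls rest on few counts. Ms4a1 was 3.69 ± 0.53 log2 units higher in Ly6Clow than in Ly6Chigh monocytes (adjusted p = 2.96e-08), but 1.59 with adjusted p = 0.10 in CON mice alone. Cd79b, by contrast, lay at 6.92, 6.04 and 5.44 CPM on average in Ly6Chigh monocytes, Ly6Clow monocytes and T cells. It passed neither comparison of Ly6Clow monocytes, with differences of -0.22 ± 0.16 and 0.16 ± 0.16 log2 units against Ly6Chigh monocytes and T cells.

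In T cells the complement receptor gene Cr2 held the largest share of its B cell level. Its T cell values were 2.72 to 9.52 CPM (median 3.79) in CON and 0.727 to 5.31 CPM (median 3.65) in SUS mice, and 4.14, 5.98, 1.67, 2.01 and 4.96 CPM in the 5 RES libraries. It was 2.93 ± 0.36 log2 units higher in T cells than in Ly6Chigh monocytes (adjusted p = 2.51e-10). Cd79a was also higher in T cells than in Ly6Chigh monocytes, by 2.16 ± 0.25 log2 units (adjusted p = 5.51e-11), at 4.96 against 1.09 CPM on average.

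The main question for these genes was whether B cells of stressed mice differed from those of controls. No member was called between SUS and CON, RES and CON or SUS and RES B cells. Among all 17620 genes tested, 1 was called between SUS and CON B cells (0.00568%), 0 between RES and CON (0%) and 0 between SUS and RES (0%). At an unadjusted p under 0.05, 602, 560 and 240 genes passed by edgeR in these comparisons, and DESeq2 called 39, 11 and 0 genes but no member. The median log2 fold change of the members was -0.022 in SUS and -0.040 in RES against CON, beside -0.001 and 0.001 over all genes tested. Across the 9 members the values ran from -0.369 to 0.112 in SUS against CON, from -0.343 to 0.114 in RES against CON and from -0.064 to 0.036 in SUS against RES mice.

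**Figure D3:**
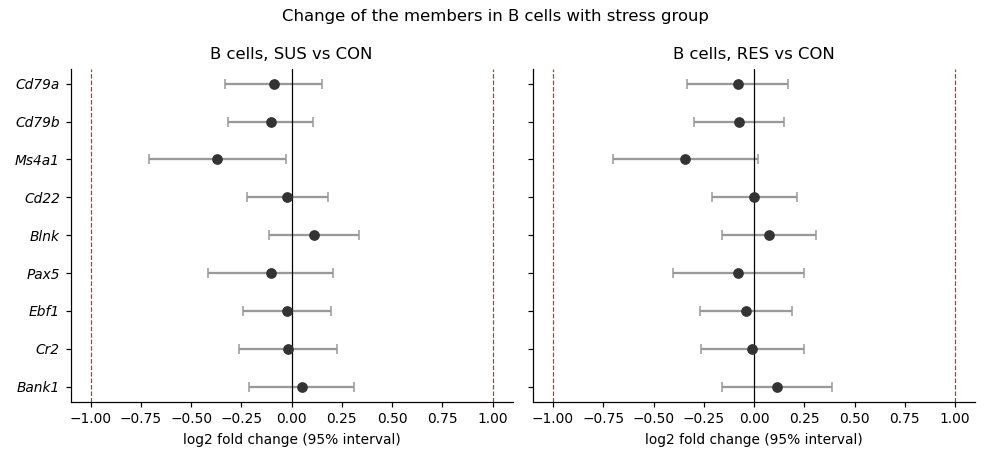
Log2 fold change of each member in B cells of SUS (left) and RES (right) against CON mice, with approximate 95% intervals from the SE. Red dashed lines mark the fold threshold of 1 on either side, and every interval lies within it, with Ms4a1 lowest in both.

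The receptor chains had overlapping ranges in the 3 groups. Cd79a was 1435 to 1605 CPM (median 1532) in CON B cells, 1146 to 1956 CPM (median 1316) in SUS, and 1298, 1272, 1666, 1291 and 1720 CPM in the 5 RES libraries. The groups overlapped, and the SUS libraries spread more widely, with an SD of 334 CPM against 77.4 CPM in CON. The difference was -0.090 ± 0.122 log2 units in SUS and -0.081 ± 0.128 in RES against CON mice. Cd79b was 1188 ± 145 CPM in CON (SD, n = 6), 1115 ± 186 in SUS (n = 6) and 1135 ± 91.0 in RES (n = 5), with differences of -0.105 ± 0.109 and -0.074 ± 0.114 log2 units.

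The coreceptor and inhibitory receptor genes had nearly equal group means. Cr2 was 301.5 ± 50.8, 299 ± 35.0 and 301 ± 47.0 CPM in CON, SUS and RES B cells, and differed by -0.018 ± 0.124 and -0.009 ± 0.131 log2 units from CON. Cd22 was 880.1 ± 106, 873 ± 93.3 and 884 ± 100.3 CPM, with differences of -0.022 ± 0.103 and 0.001 ± 0.108 log2 units. The 95% intervals of Cd22 ran from -0.224 to 0.180 in SUS and from -0.211 to 0.213 in RES mice. Of the adaptors, Blnk was 232 ± 45.4, 252 ± 21.3 and 245 ± 4.75 CPM, and Bank1 757 ± 81.3, 789 ± 134 and 822 ± 169 CPM. Blnk differed from CON by 0.112 ± 0.114 and 0.076 ± 0.119 log2 units and Bank1 by 0.050 ± 0.133 and 0.114 ± 0.139.

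The transcription factors did not pass the test either. Pax5 was 813 ± 203, 760.1 ± 138 and 772 ± 138 CPM in CON, SUS and RES B cells, and differed by -0.104 ± 0.158 and -0.079 ± 0.166 log2 units. Ebf1 was 289 ± 35.5, 286 ± 31.1 and 281 ± 28.9 CPM, and differed by -0.022 ± 0.111 and -0.040 ± 0.116 log2 units.

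Ms4a1, which encodes CD20, had the largest difference among the members. Its B cell values were 529.5 to 1198 CPM (median 673) in CON and 437 to 693 CPM (median 635) in SUS mice, and 766, 708, 459.5, 506 and 586.5 CPM in the 5 RES libraries. The groups overlapped, and CON libraries 38 (1198 CPM) and 35 (897 CPM) lay above all stressed libraries. The difference was -0.369 ± 0.174 log2 units in SUS against CON (unadjusted p = 0.0447 and adjusted p = 0.999 in edgeR's quasi-likelihood test) and -0.343 ± 0.184 in RES against CON (adjusted p = 1.0). Without CON library 38 the values were -0.188 and -0.162. Markers of other cells moved with the groups in the same B cell libraries. Natural killer cell markers summed to 3.17 to 6.51 CPM in CON, 14.6 to 39.8 CPM in SUS and 9.95 to 27.2 CPM in RES mice, and red cell markers had medians of 2766, 5571 and 4654 CPM. The red cell markers had r = 0.152 and rho = -0.049 with Ms4a1 within groups (adjusted permutation p = 0.927 and 0.991 over 63 relations), and with them as a covariate the Ms4a1 difference was -0.466 in SUS and -0.426 in RES against CON. The part of natural killer cells was not tested.

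**Figure D4:**
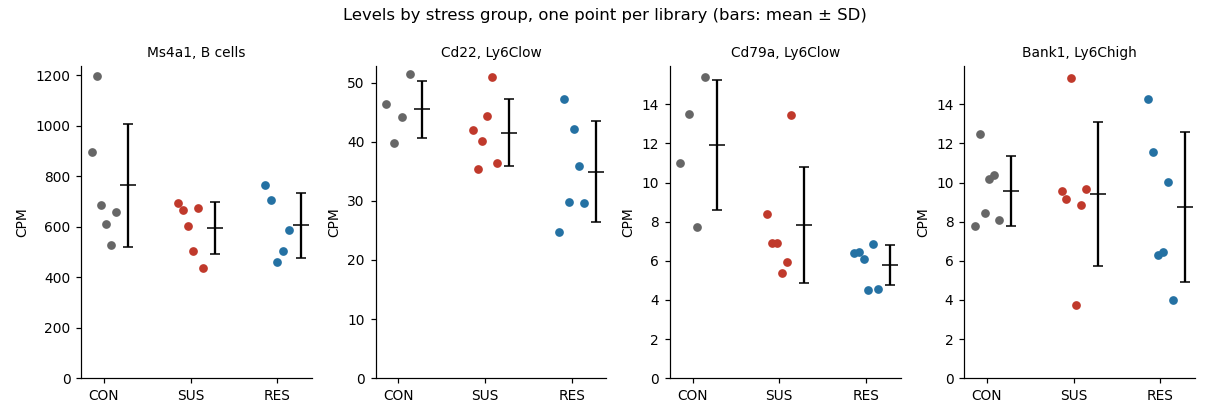
CPM per library (points) with mean ± SD (bars) in CON, SUS and RES mice for Ms4a1 in B cells, Cd22 and Cd79a in Ly6Clow monocytes and Bank1 in Ly6Chigh monocytes. The Ms4a1 groups overlap below the highest CON libraries, and for Cd79a the SUS libraries overlap both other groups.

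Libraries 35 to 40, which held 2 libraries of each group, differed from libraries 41 to 51 in the levels of several members. This split was made after the data were seen, and the share of all genes that differ between the sets was not counted. Bank1 was 851.5 to 1009 CPM in the former and 613 to 804 CPM in the latter, and Pax5 492 to 715 CPM against 766.5 to 1006 CPM. Cd22 was 749.5 to 819 against 796 to 1022 CPM, and Ms4a1 667 to 1198 against 437 to 687 CPM. The labels say nothing of these libraries beyond their numbers. With the 2 sets as a term, a fit chosen after the data were seen, no member was called. Ms4a1 differed by -0.327 ± 0.114 log2 units in SUS and -0.358 ± 0.12 in RES against CON (adjusted p = 0.941 and 1.0 in edgeR's quasi-likelihood test), and all members ran from -0.327 to 0.116 in SUS and from -0.358 to 0.086 in RES mice.

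Ms4a1 moved with the share of counts on mitochondrial genes. That share was 6.18 to 18.4% in CON, 3.86 to 10.9% in SUS and 5.61 to 12.2% in RES B cell libraries, and 9.3 to 18.4% in libraries 35 to 40 against 3.86 to 10.9% in libraries 41 to 51. Over the 11 libraries numbered 41 to 51, with group means subtracted, r was 0.910 and rho 0.927 (exact permutation within groups, p = 0.00376 and 0.000868, adjusted over 63 relations of members with library measures 0.0684 and 0.0547). Without the 2 libraries farthest from the median share, r was 0.802. Over all 17 libraries r was 0.933 and rho 0.897 (permutation p = 1e-05, the smallest that 100000 resamples can give, and 2e-05, adjusted 0.00063 and 0.00126), and r was 0.910 without the 2 farthest libraries. Libraries 35 to 40 and 41 to 51 differed in both values, with median shares of 11.2 and 6.46% and Ms4a1 medians of 737 and 586.5 CPM. The permutations over 17 libraries did not keep these sets apart, so their p-values also measure that difference. Cr2 had r = 0.924 and rho = 0.8 with the same share over the 11 libraries (adjusted exact permutation p = 0.0684 and 0.151, r = 0.823 without the 2 farthest). Bank1 had r = 0.599 and rho = 0.727 there (adjusted exact permutation p = 0.631 and 0.195, r = 0.583 without the 2 farthest). None of the 63 relations had an adjusted p under 0.05 for r over the 11 libraries, and 4 had over the 17. Ms4a1, Cr2 and Bank1 passed with the mitochondrial share. Cr2 also passed with the level of the genes Gm23935 and Gm26917 (r = -0.723, adjusted permutation p = 0.0378). Over the 11 libraries that level had r = -0.806 and rho = -0.864 with Ms4a1 (adjusted exact permutation p = 0.109 and 0.134). With Cr2 it had r = -0.82 and rho = -0.8 (adjusted exact permutation p = 0.0684 and 0.134). With the mitochondrial share as a covariate, also chosen after the data were seen, the Ms4a1 difference was -0.164 ± 0.094 log2 units in SUS and -0.179 ± 0.097 in RES against CON mice (adjusted p = 0.999 and 1.0 in edgeR's test).

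The members did not vary as 1 block across B cell libraries. Over libraries 41 to 51, 18 of 36 pairs had a positive r after group means were subtracted, from -0.687 to 0.943 with a median of 0.029. Pax5 and Bank1 were the 1 pair with an adjusted p under 0.05 for r, at r = 0.933 and rho = 0.918 (adjusted exact permutation p = 0.0208 and 0.0729, r = 0.957 without the 2 farthest libraries). Their rho did not pass. Libraries 41 to 51 were set apart after the data were seen, so these p-values are no support for a relation. Over all 17 libraries the same pair had r = -0.597, the opposite sign, so pooled values for the pairs are not given as relations between members. Ms4a1 and Cr2 had r = 0.850 and rho = 0.855 over the 11 libraries (adjusted exact permutation p = 0.0729 and 0.115, r = 0.746 without the 2 farthest). Over libraries 35 to 40, with 2 libraries a group, no relation was computed. The points share library size scaling, so a rise of 1 gene's share is not independent of a fall of another's.

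**Figure D5:**
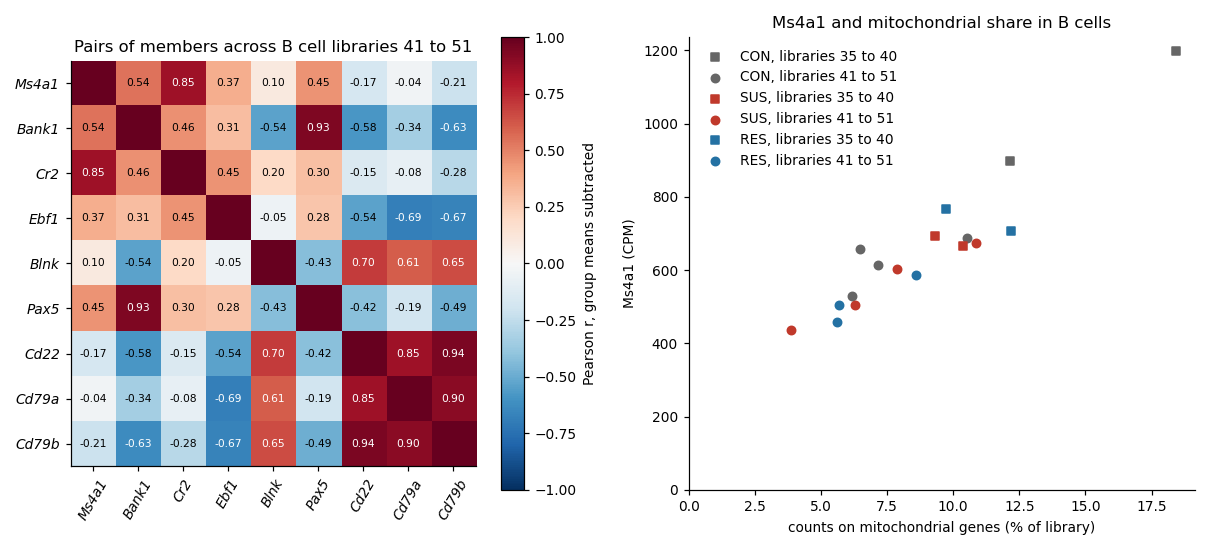
Left, Pearson r of each pair of members over B cell libraries 41 to 51 with group means subtracted (red positive, blue negative). Right, Ms4a1 CPM against the percentage of counts on mitochondrial genes in all 17 libraries by group, with squares for libraries 35 to 40 and circles for 41 to 51. Pax5 with Bank1 has r = 0.933, and Ms4a1 is higher in libraries with a higher mitochondrial share.

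Outside B cells, no member was called between stress groups. In T cells 8 of 9 members passed the filter, without Ebf1, and log2 fold changes ran from -1.722 to 0.5 in SUS and from -0.573 to 0.861 in RES against CON mice. The background was 0.0265% of 18860 genes in SUS against CON, 0% in RES against CON and 0% in SUS against RES T cells. In Ly6Chigh monocytes, where 3.45% of 16955 genes were called in SUS against CON, 0.997% in RES against CON and 0% in SUS against RES, the 6 members tested ran from -2.496 to 0.181 and from -1.408 to 1.365. Ms4a1, Pax5 and Ebf1 did not pass the filter there. Bank1 in these cells was 7.77 to 12.5 CPM (median 9.32) in CON, 3.76 to 15.4 CPM (median 9.36) in SUS and 3.99 to 14.3 CPM (median 8.24) in RES mice, and the groups overlapped. DESeq2, which kept such genes, called Ms4a1 lower in RES than CON Ly6Chigh monocytes (log2 fold change -4.13, adjusted p = 0.0128), on 4 to 98 counts per CON library and 0 to 2 counts per RES library. In Ly6Clow monocytes the background was 0.0871% of 19521 genes in SUS against CON, 0.0154% in RES against CON and 0% in SUS against RES mice.

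The member nearest to a call there was Cd79a in Ly6Clow monocytes. It was 11.0, 13.5, 7.73 and 15.4 CPM in the 4 CON libraries, 5.37 to 13.5 CPM (median 6.91) in SUS and 4.51 to 6.86 CPM (median 6.24) in RES mice. The SUS values overlapped those of CON and RES mice. This gene was chosen for further description after the data were seen. The difference was -1.06 ± 0.27 log2 units in RES (adjusted p = 0.149) and -0.62 ± 0.27 in SUS against CON (adjusted p = 0.438), and DESeq2 called the former at -1.08 (adjusted p = 0.0137). Over the alternatives the value in RES ran from -1.22 to -0.92, with adjusted p from 0.0137 to 0.593. Cd22 in the same cells differed by -0.41 ± 0.15 log2 units in RES (adjusted p = 0.359) and -0.14 ± 0.15 in SUS against CON. Of all 9 members, 6 were lower in RES than in CON Ly6Clow monocytes, while 49.4% of all genes tested were higher. The 6 members included Blnk at -1.86 ± 0.87, Ebf1 at -2.23 ± 1.48, Ms4a1 at -0.76 ± 0.77 and Bank1 at -0.17 ± 0.33 log2 units. By edgeR 3 members, Cd79a, Cd22 and Blnk, all lower, had an unadjusted p under 0.05, beside 9.67% of all 19521 genes tested. Higher in RES were Cd79b at 0.42 ± 0.35, Pax5 at 0.22 ± 1.01 and Cr2 at 0.05 ± 0.56 log2 units.

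The change with stress was compared directly between B cells and each other cell type. No member had an adjusted p under 0.05 in any of the 6 comparisons of changes. The background was 0.0949% of 24248 genes for SUS against CON and 0.0206% for RES against CON with T cells, 6.18% and 1.65% with Ly6Chigh monocytes, and 0.128% and 0.0701% with Ly6Clow monocytes. The nearest were Cr2 and Ms4a1 in SUS against CON, whose change was 2.56 ± 0.87 and 3.45 ± 1.18 log2 units higher in B cells than in Ly6Chigh monocytes (adjusted p = 0.0622 and 0.0653). The Ms4a1 value rests on very few counts in Ly6Chigh monocytes, where this gene did not pass the filter on its own: 35 and 98 counts in CON libraries 7 and 10, and 0 to 6 in each of the others. In the fit of these cell types alone Ms4a1 had an adjusted p of 0.0345, and 2 members passed. Cr2 was not among them, with an adjusted p of 0.0578 or more under every alternative.

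Other B cell genes were taken from 9 lists of 109 genes, 103 of them tested within B cells. None was called in SUS against CON, RES against CON or SUS against RES B cells by edgeR, with 9, 7 and 1 at an unadjusted p under 0.05, beside 3.42%, 3.18% and 1.36% of all genes tested. Against the other cells, 64 of 109 were called higher and 9 lower in B cells than in T cells, 56 and 16 against Ly6Chigh monocytes, and 52 and 18 against Ly6Clow monocytes. Over all genes, the shares called lower in B cells were 15.3%, 18.1% and 21.5%, beside the shares called higher given above. Among the kinases of receptor signalling, Lyn and Syk averaged 322 ± 23.6 and 1599 ± 152 CPM in B cells (SD, n = 17), and the 18 genes of that list had log2 fold changes from -0.280 to 0.160 in SUS and from -0.180 to 0.151 in RES against CON. The coreceptor gene Cd81 averaged 136 ± 22.1 CPM, and the 3 genes tested of its list ran from -0.114 to -0.005 and from -0.162 to 0.025. The inhibitory receptor genes Cd72 and Fcgr2b averaged 125 ± 13.0 and 95 ± 8.26 CPM, with the 12 genes of their list from -0.229 to 0.701 and from -0.149 to 0.321. Tcf3 and Spib, B lineage transcription factors, averaged 329.7 ± 77.9 and 447 ± 81.7 CPM, and 17 such factors ran from -0.328 to 0.216 and from -0.409 to 0.118.

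Genes of mature B cells and their migration, such as Fcer2a (753 ± 99.9 CPM) and Cd40 (108 ± 13.3 CPM), ran from -0.317 to 0.184 log2 units in SUS and from -0.359 to 0.211 in RES against CON. Marginal zone and B-1 genes, such as Cd9 (7.72 ± 2.81 CPM) and Cd1d1 (14.4 ± 4.27 CPM), ran from -0.277 to 0.452 and from -0.500 to 0.367. The germinal centre gene S1pr2 averaged 0.544 ± 0.432 CPM, and the 8 genes tested of its list ran from -1.693 to 0.706 and from -1.771 to 0.548. Of the activation genes, Nr4a1 and Egr1 averaged 9.61 ± 3.25 and 6.85 ± 3.94 CPM, and the 12 genes ran from -1.05 to 0.475 and from -0.888 to 0.682. Among the immature and transitional genes, Vpreb3 was at 46.5 ± 7.08 CPM, and the 7 genes tested ran from -1.01 to 0.142 and from -1.069 to 0.253. Cd93, a marker of immature B cells that was also expressed in Ly6Chigh monocytes, was the gene of these lists called by DESeq2. Cd93 was 15.4 to 26.7 CPM (median 24.5) in CON, 9.87 to 18.2 CPM (median 11.6) in SUS and 8.75 to 16.6 CPM (median 9.90) in RES B cells. Its difference from CON was -0.89 ± 0.20 log2 units in SUS (adjusted p = 0.236) and -1.07 ± 0.21 in RES mice (adjusted p = 0.589). DESeq2 called it in RES mice at -1.08 (adjusted p = 0.00512) and gave -0.90 in SUS mice with adjusted p = 0.0105, under the fold threshold. The monocyte markers in the same libraries had summed medians of 36.5, 62.7 and 60.7 CPM in CON, SUS and RES B cells, and their part in the Cd93 values was not tested.

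Over all 68 libraries the 4 genes most like the mean of the members on the log2(CPM + 0.5) scale were Iglv3 (r = 0.991), Iglc2 (0.990), Ly6d (0.989) and Gm32220 (0.989), among 13914 genes with a mean of at least 50 counts. These values describe a contrast between 4 cell types, and the libraries of a type share that position. Within the 17 B cell libraries, with group means subtracted and libraries 35 to 40 included, the gene most like Cd79a was Ly6e (r = 0.963), that most like Bank1 was Cd55 (0.976) and that most like Cd22 was Pml (0.959), among 12474 genes. Ms4a1 was most like Capza1 (0.959), Pax5 most like Ankrd11 (0.935), Cr2 most like Ddx5 (0.916) and Cd79b most like Gm15501 (0.939). Blnk was most like Tubb1 (0.909) and Ebf1 most like Gm48586 (0.965), at 11.0 and 2.39 CPM on average.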

How the data were processed

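RNA from cells sorted by flow cytometry was sequenced by the authors with a stranded total RNA kit for low input. Reads were aligned with HISAT2 to mm10 and counted per gene with HTSeq, per the labels and the study's methods. The deposited values are raw counts per gene and library, with no normalization. Strand option and treatment of duplicates are not given in the sources used here. Gene IDs were paired with symbols through GENCODE M21 (52489 of 52636 matched). Libraries were grouped by labelled condition and cell type. Of 171 pairs of libraries of one group, 0 were identical.

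Levels are CPM scaled by TMM, with a pseudocount of 0.5 CPM for log2 values. Groups were compared with edgeR 4.0.16 (R 4.3.3, limma 3.58.1): robust quasi-likelihood F test, TMM, filterByExpr and Benjamini-Hochberg adjustment over all genes tested, within each cell type and over 12 group means for comparisons of cell types. Genes were called where the adjusted p was under 0.05 and the log2 fold change was beyond 1 in either direction. The SE is the fold change over the square root of F, and 95% intervals come from it. DESeq2 1.42.0, other size factors, no filter, kept libraries, 2 groups or cell types alone, gene exclusions, a red cell covariate and each library left out were alternatives. The comparisons among T cells and monocytes and the fits with the mitochondrial share or the set of libraries 35 to 40 as a covariate were added after the data were seen, as was the choice to describe Cd93 and Cd79a in Ly6Clow monocytes further. Correlations used permutations of libraries within groups, 100000 over 17 libraries and all 3456 over libraries 41 to 51. Members and lists were chosen with earlier results of these data known. Named were all members, every gene of the lists called in B cells and the first 2 tested of each list, 5 genes most like the members and 1 per member within B cells. Some genes that this rule names are not reported here. The scripts were tested on simulated data. At these depths, counting error is small for members in B cells, while members at a few counts in other cells are imprecise.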

Additional observations from a re-analysis of the deposited data

Results flagged for a closer look

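Of 108 sets of libraries (9 members, 4 cell types and 3 groups), 12 held a library farther from the others than Dixon's 95% limit, and chance marks about 1 in 20 such sets. None of the 12 was in B cells. In Ly6Clow monocytes these were Cd79a (13.5 CPM) and Blnk (4.25 CPM) in SUS library 33, Cr2 in RES library 28 (5.53 CPM) and Bank1 in CON library 21 (26.3 CPM). In T cells they were Cd79b in RES library 55, lowest at 4.96 CPM, Ms4a1 in SUS library 66 (0.337 CPM) and Ebf1 in CON library 53 (0.386 CPM). In Ly6Chigh monocytes they were Ms4a1 in CON library 10 (2.78 CPM), Cd22 in RES library 12 (6.46 CPM), Blnk in CON library 13 (1.03 CPM) and RES library 9 (2.103 CPM), and Cr2 in SUS library 5 (0.693 CPM).

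The 2 libraries left out held signal against their labels. Library 70, labelled RES T, held 6223 CPM summed over the members, against at most 26.7 CPM in CON T libraries. Library 52, labelled RES B, held 412.4 CPM of Cd3e, against at most 0.531 CPM in CON B libraries.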

How the results depend on the processing

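No member was called within B cells under any alternative, and all 9 were called higher in B cells under all 5 alternatives. Between SUS and CON B cells, 1 gene was called, against 39 by DESeq2, 2 without a filter, with the mitochondrial covariate or with libraries 35 to 40 as a term, 0 with the 2 groups alone, the red cell covariate or libraries 52 and 70 kept, and 0 to 2 with 1 library left out (1 without RES library 40 or SUS library 51, 2 without SUS library 39 or CON library 50, and 0 without any other). DESeq2 called 11 genes between RES and CON B cells, 1 of them from the lists (Cd93), and 1 member each in Ly6Chigh (Ms4a1) and Ly6Clow (Cd79a) monocytes for RES against CON. The change in SUS mice differed between B cells and Ly6Chigh monocytes for 2 members in the fit of these types alone, and the change in RES mice between B and T cells for 8 members with libraries 52 and 70 kept.

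Small differences in B cells changed sign. With 1 library left out, SUS against CON ran from -0.064 to 0.010 for Cd22, -0.079 to 0.029 for Ebf1, -0.066 to 0.073 for Cr2 and -0.015 to 0.12 for Bank1, and RES against CON from -0.043 to 0.038 for Cd22, -0.010 to 0.139 for Blnk, -0.096 to 0.025 for Ebf1 and -0.083 to 0.082 for Cr2. With the red cell covariate, Ebf1 was 0.127 in SUS and 0.094 in RES, Cr2 0.002 and Cd22 -0.014 in RES. With the mitochondrial covariate, Cr2 was 0.070 in SUS and 0.056 in RES and Cd22 -0.039 in RES. Cd22 in RES was -0.008 by DESeq2 and with its size factors, -0.003 without a filter and -0.004 without mitochondrial and hemoglobin genes. With libraries 52 and 70 kept, RES against CON was -0.261 for Cd22, -0.186 for Blnk and -0.148 for Bank1, and Cd79b in Ly6Clow monocytes against T cells was -1.54, and -0.199 in CON mice alone. Of these 2 libraries, 70, labelled RES T, held Cd79b at 1122 CPM, and 52, labelled RES B, held Cd22 at 3.60 CPM. The cause of the changes in sign was not tested. With a pseudocount of 0.1 CPM 2 of the 5 genes most like the members remained, and with 1 CPM 5 did. No paired analysis was possible because the groups share no library numbers. Depth limits the members at under 1 CPM outside B cells.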
